A study of Mus musculus with 96 samples.

Results

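Creatine and calcium futile cycling genes are genes of heat routes proposed to work without uncoupling protein 1 (UCP1), and 10 of them were described here out of 29072 gene symbols in the deposited table. The members are Ckb, Ckmt1, Ckmt2, Gatm, Gamt, Slc6a8, Alpl, Atp2a2, Atp2a3 and Ryr2, taken by symbol. For each symbol the transcript row with the highest mean over all 96 libraries was taken. The study measured RNA by sequencing in interscapular brown fat (iBAT) and inguinal white fat (iWAT) of male C57BL/6J mice that were wild-type or lacked Ucp1 (Ucp1-KO). Mice of each genotype were kept for 4 weeks on a control diet with 13% of energy from fat at 20 °C, on that diet at 30 °C (thermoneutrality), or on a high fat diet with 48% of energy from fat at 30 °C. Each of the 12 groups held 8 libraries, from 8 animals. Both fats came from the same animals, but the labels used here do not say which iBAT and iWAT belong together, so the tissues were compared as separate samples. They also give no age, no design of the Ucp1 allele and no batch.

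Brown fat makes heat when UCP1 lets protons flow back across the inner mitochondrial membrane without making ATP. In the proposed creatine cycle, a creatine kinase transfers phosphate from ATP to creatine and a phosphatase releases it again, so that ATP is spent without net work. In the calcium cycle, a SERCA pump moves calcium into the endoplasmic or sarcoplasmic reticulum at the cost of ATP and a release channel lets it out. The members cover the kinases (Ckb, Ckmt1, Ckmt2), the phosphatase (Alpl), creatine uptake (Slc6a8) and synthesis (Gatm, Gamt), the pumps (Atp2a2, Atp2a3) and the release channel (Ryr2).

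Promoter sequences are shown for the 4 members on which the results turn most: Ckb, which had the largest fall of the members between 30 and 20 °C in wild-type iBAT, Gatm and Gamt, which fell together in Ucp1-KO iBAT, and Atp2a3, which was higher in Ucp1-KO iBAT in all 3 conditions. Each runs 5′ to 3′ along the gene's own strand, from 250 bases before to 50 bases after the RefSeq start (build GRCm38.p6). The windows are Ckb at chr12:111672289-111672588 (minus strand), Gatm at chr2:122611228-122611527 (minus strand), Gamt at chr10:80260963-80261262 (minus strand) and Atp2a3 at chr11:72960919-72961218 (plus strand). Capitals mark the TATA box letters TATAAA, the CCAAT box letters CCAAT and the GC box letters GGGCGG, or their reverse complements.
Ckb: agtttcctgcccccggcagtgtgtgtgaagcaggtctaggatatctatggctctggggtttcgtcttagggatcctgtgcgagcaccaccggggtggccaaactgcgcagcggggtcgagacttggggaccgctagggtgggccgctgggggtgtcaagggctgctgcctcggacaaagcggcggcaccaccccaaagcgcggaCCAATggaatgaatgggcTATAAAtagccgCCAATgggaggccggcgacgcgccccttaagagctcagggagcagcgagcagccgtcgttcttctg
Gatm: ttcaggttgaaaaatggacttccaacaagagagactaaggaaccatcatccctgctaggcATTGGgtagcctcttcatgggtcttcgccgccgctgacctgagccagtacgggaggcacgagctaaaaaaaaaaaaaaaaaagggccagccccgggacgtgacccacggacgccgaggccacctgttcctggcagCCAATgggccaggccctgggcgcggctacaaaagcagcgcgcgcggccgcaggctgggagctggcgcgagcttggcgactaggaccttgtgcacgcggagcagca
Gamt: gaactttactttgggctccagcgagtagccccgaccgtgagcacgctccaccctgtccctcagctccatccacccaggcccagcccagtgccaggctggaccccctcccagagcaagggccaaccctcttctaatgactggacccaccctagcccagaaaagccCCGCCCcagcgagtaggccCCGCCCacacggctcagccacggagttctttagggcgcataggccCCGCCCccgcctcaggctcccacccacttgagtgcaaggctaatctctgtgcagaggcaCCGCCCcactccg
Atp2a3: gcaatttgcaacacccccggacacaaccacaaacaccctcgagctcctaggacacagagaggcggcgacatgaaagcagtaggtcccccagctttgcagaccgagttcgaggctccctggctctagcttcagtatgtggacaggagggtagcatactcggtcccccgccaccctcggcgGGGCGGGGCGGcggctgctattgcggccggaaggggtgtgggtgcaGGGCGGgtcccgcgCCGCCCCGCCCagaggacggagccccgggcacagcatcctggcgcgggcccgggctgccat
The Ckb window held TATAAA 28 bases before the start and CCAAT 46 and 16 bases before it. Gatm held CCAAT 55 bases before the start and its reverse complement 190 bases before. Gamt held 4 reverse complements of GGGCGG and no other searched motif. Atp2a3 held 5 GC boxes, of which some neighbours shared 1 base. Over all 32851 promoter windows of this length, 13.6% held TATAAA, 37.4% held CCAAT and 35.7% held GGGCGG on either strand. RefSeq windows were matched for 8 of the 10 members, with Slc6a8 and Atp2a2 unmatched.

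The deposited values are RPKM, read counts scaled to transcript length and library size, which are shares of a library: when a few transcripts take more of it, all others are listed lower. Depths recovered from the values ran from 8.91 to 19.2 M reads per library, and 1 read per kilobase was worth 0.052 to 0.112 RPKM. Differences below are of log2(RPKM + 1), a scale that understates the change of low genes, each with its standard error (SE) and an adjusted p from limma over all genes tested in that tissue, called below 0.05. Rescaling moved the median difference of all genes by −0.25 to 0.38 (median-ratio scaling) or by −0.32 to 0.52 (quantile normalization) across 26 comparisons, so the median of all genes is given beside the members' counts. Ucp1 itself, the deleted gene, ran from 2428 to 9281 RPKM in wild-type and from 545.9 to 1145 RPKM in Ucp1-KO iBAT libraries, so reads were still counted on its row in knockouts. Cidea, another brown fat gene, was 0.32 higher in wild-type iBAT at 20 °C (adjusted p = 0.0489). In the 8 libraries labelled wild-type iBAT at 20 °C, Ucp1 was 1.14 ± 0.12 lower than at 30 °C (adjusted p = 3.1e-10) and Ppargc1a, a coactivator usually induced by cold, was 2.26 lower (median 14.1 against 66.9 RPKM), whereas wild-type iWAT had 2.37 ± 0.54 more Ucp1 at 20 °C (adjusted p = 0.00182). Every wild-type iBAT temperature difference below rests on these libraries, as do the iBAT genotype differences at 20 °C, the genotype-by-temperature tests in iBAT and the wild-type tissue contrasts that use 20 °C, and whether their labels play a part was not tested.

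In iBAT, lower temperature went with less Ckb, Slc6a8 and Atp2a2 in wild-type mice, and with less Gatm, Gamt and Slc6a8 but more Alpl in Ucp1-KO mice. In wild-type iBAT 3 of 10 members were lower at 20 °C than at 30 °C and 0 were higher, which limma also found at an unadjusted p under 0.05. Of all genes tested there, 33% were lower and 11.6% higher, or 21.0% and 20.9% after median-ratio scaling. The members' median was −0.14, near the median of all genes at −0.12. In Ucp1-KO iBAT 3 of 10 members were lower and 1 was higher, against 59.5% lower and 13.9% higher of all genes (34.3% and 30.9% after median-ratio scaling). After that scaling 2 members were lower (Gatm, Gamt) and 4 higher (Alpl, Atp2a2, Atp2a3, Ckb), so the split of the members there depends on how libraries are scaled. The test of the difference between genotypes called 3 members higher (Ckb, Atp2a2, Alpl) and 2 lower (Gamt, Gatm), against 11.9% higher and 40.5% lower of all genes (22.9% and 25.1% after median-ratio scaling, with Atp2a3 and Slc6a8 as further members called higher).

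Between genotypes, Atp2a3 was higher in Ucp1-KO iBAT in each of the 3 conditions. At 20 °C, 6 of 10 members were higher and 0 lower (also 0 at an unadjusted p under 0.05), against 24.7% higher and 13.1% lower of all genes, or 21.2% and 19.7% after median-ratio scaling. At 30 °C, 4 of 10 were higher and 0 lower (0 at an unadjusted p under 0.05 too), against 54.2% and 10.5% of all genes. After median-ratio scaling 4 were higher and 3 lower (Ckb by −0.68, Atp2a2 by −0.50 and Alpl by −0.41), against 29.1% and 27.6% of all genes. On the high fat diet 5 of 10 were higher and 1 lower, against 52.8% and 11% of all genes, and 3 higher and 1 lower after median-ratio scaling, against 27.1% and 26.4%. Ryr2, which passed the filter on low values through its high groups, is among the members called at 20 °C, at 30 °C and for diet, so nothing is read from these shares. High fat diet against control diet at 30 °C called 1 of 10 higher and 2 lower in wild-type iBAT, against 18.5% and 14.5% of all genes, and 2 of 10 higher and 1 lower in Ucp1-KO iBAT, against 8.35% and 8.02%. The diet responses differed between genotypes for Gatm, 1 of 10 members higher and 0 lower (2 lower, Gamt and Ryr2, at an unadjusted p under 0.05), against 2.78% and 3.78% of all genes.

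In iWAT 9 members passed the filter on low values. Their calls, like those of all genes and so not a result about the members, were most frequent in the Ucp1-KO mice at 20 °C. There Atp2a2 and Alpl were higher, and Atp2a3, Gatm, Ckb and Gamt lower, than in wild-type mice: 2 of 9 higher and 4 lower, against 9.85% and 55% of all genes (26.9% and 22.1% after median-ratio scaling, when Ckb and Gamt were no longer called). At 30 °C 1 of 9 was higher and 1 lower, against 7.54% and 16.2% (11.1% and 4.86%). On the high fat diet limma called 0 of 9 in either direction, with 0 higher and 2 lower (Ckb and Gamt) at an unadjusted p under 0.05, against 0.195% higher and 0.0881% lower of all genes (0.221% and 0.0379%). Between 20 and 30 °C, 1 of 9 members was lower and 0 higher in wild-type iWAT (0 higher at an unadjusted p under 0.05), against 12.4% and 7.25% of all genes (4.02% and 9.8%). In Ucp1-KO iWAT 4 were lower and 2 higher, against 51.4% and 9.02% (14.0% and 24.2%, with 1 member, Gatm, still called lower). The genotypes differed in this response for 1 member higher (Atp2a2) and 1 lower (Gatm), against 2.15% and 11.1% (7.37% and 1.41%, with Alpl and Atp2a2 higher and 0 lower). The high fat diet called 1 of 9 higher (Gamt) and 1 lower (Ckmt2) in wild-type iWAT, against 9.69% and 3.84%. In Ucp1-KO iWAT it called 2 higher (Gamt, Atp2a3) and 1 lower (Ckmt2), against 16.1% and 8.31% (8.45% and 10.9%). The Atp2a3 difference, 0.38 (adjusted p = 0.0404), was no longer called after either rescaling (0.29 and 0.32), nor without any 1 of 8 of the 16 libraries (adjusted p up to 0.154). The diet responses differed between genotypes for 0 of 9 members, also at an unadjusted p under 0.05, against 0.101% higher and 1.23% lower of all genes.

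**Figure D1:**
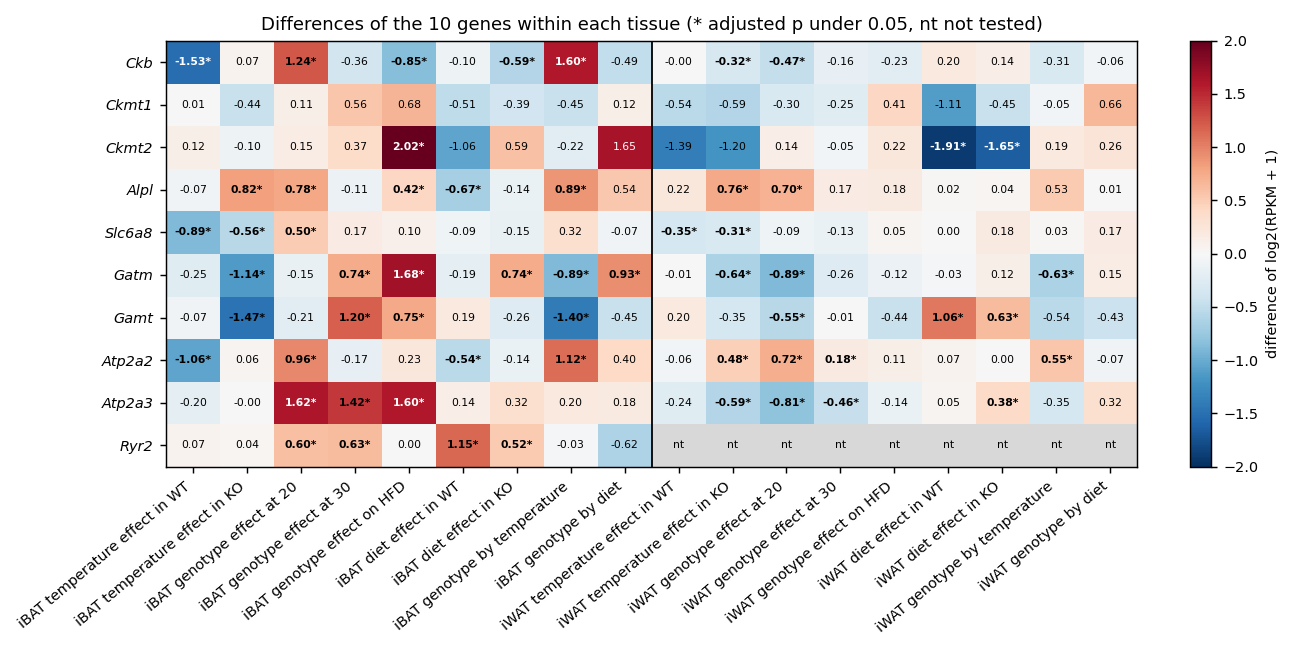
Differences of log2(RPKM + 1) for the 10 genes (rows) in 18 comparisons within tissues (columns), coloured from lower to higher, each group with 8 libraries. A star marks an adjusted p under 0.05 and nt a gene that was not tested. Atp2a3 is higher in the 3 iBAT genotype comparisons, by 1.62, 1.42 and 1.60.

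Ckb, the brain-type creatine kinase of the cytosol, fell most of the members at 20 °C in wild-type iBAT. It ran from 4.35 to 11.5 RPKM there (median 7.45), from 13.0 to 46.2 at 30 °C (median 24.0) and from 18.5 to 29.1 on high fat diet (median 22.0). All of the 20 °C libraries lay below all of the other wild-type iBAT libraries. The 20 °C minus 30 °C difference was −1.53 ± 0.19 (adjusted p = 1.5e-08), and the mean level at 20 °C was 0.315 of that at 30 °C. In Ucp1-KO iBAT Ckb ran from 10.9 to 47.0 RPKM at 20 °C (median 18.7), from 14.0 to 32.0 at 30 °C (median 17.0) and from 9.21 to 14.2 on high fat diet (median 11.7). The Ucp1-KO groups at 20 and 30 °C overlapped, with a difference of 0.07 ± 0.19 (adjusted p = 0.758), and the genotypes differed in their temperature response by 1.60 ± 0.27 (adjusted p = 6.5e-06). After either rescaling Ckb was called higher at 20 °C in Ucp1-KO iBAT, by 0.47 and 0.41, so whether a change is called there depends on how libraries are scaled.

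At 20 °C Ckb was 1.24 ± 0.19 higher in Ucp1-KO than in wild-type iBAT (adjusted p = 1.2e-06), with ranges that overlapped at their ends. On the high fat diet the order was the other way round, 0.85 lower in Ucp1-KO iBAT (a difference of −0.85 ± 0.19, adjusted p = 2.0e-04), with no overlap between the genotypes. At 30 °C on control diet the difference of −0.36 was not called (adjusted p = 0.102), but after median-ratio scaling it was −0.68 and called. The fall from control to high fat diet in Ucp1-KO iBAT, −0.59 (adjusted p = 0.0309), was no longer called without any 1 of libraries 25, 26, 30 or 48 (adjusted p up to 0.0925). In iWAT Ckb varied less, between 4.35 and 11.8 RPKM over all 48 libraries. It was 0.47 lower in Ucp1-KO iWAT at 20 °C (median 5.66 against 7.91 RPKM, a difference of −0.47 ± 0.10, adjusted p = 8.9e-05), and it was no longer called after either rescaling (−0.15). The same held for its −0.32 between temperatures in Ucp1-KO iWAT (adjusted p = 0.00645), which became −0.01 and −0.02.

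Ckmt2 and Ckmt1, the sarcomeric and ubiquitous creatine kinases of mitochondria, varied more between libraries of 1 group than between groups. Ckmt2 ran from 0 to 167.7 RPKM over the iBAT libraries, with group medians from 4.67 (wild-type, 30 °C) to 17.0 RPKM (Ucp1-KO, high fat diet), and from 0 to 37.3 RPKM over the iWAT libraries. All groups of a tissue overlapped. Its 3 calls within tissues were higher in Ucp1-KO iBAT on high fat diet (2.02 ± 0.84, adjusted p = 0.0332) and lower on high fat diet in wild-type iWAT (−1.91 ± 0.54, adjusted p = 0.013) and Ucp1-KO iWAT (−1.65, adjusted p = 0.0222). The iBAT difference was no longer called after the rescalings (1.79 and 1.77) or without library 34, 38, 43, 47 or 48 (adjusted p up to 0.0983), nor the last without library 73 (adjusted p = 0.0687). Skeletal muscle markers moved with each of them: 11 of 14 were higher in the first comparison, against 52.8% of all genes. In both of the others 9 of 12 tested were lower, against 3.84% and 8.31% of all genes. Their summed level ran from 24.6 to 899 RPKM in wild-type and from 28.9 to 11350 RPKM in Ucp1-KO iBAT on high fat diet, and no marker was at 0 in every library of a group.

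With the mean log2 level of the muscle markers as a covariate the 3 Ckmt2 differences were 0.09, −0.33 and −0.05 and none was called. Without the 32 libraries whose muscle markers summed to over 1000 RPKM, an alternative added after the data were seen, the iBAT difference was −0.04. Other Ckmt2 differences were called only with the muscle covariate. These were 0.44 for diet in Ucp1-KO iBAT (0.59 without it) and, at 30 °C, iBAT over iWAT by 0.82 in wild-type and 0.73 in Ucp1-KO mice (0.86 and 1.28 without it). Without the covariate Ckmt2 was called higher in iBAT than in iWAT at 20 °C and on high fat diet. Those values were 2.37 and 1.71 in wild-type and 2.38 and 3.52 in Ucp1-KO mice. As deviations from group means on the log2 scale, Ckmt2 followed the muscle sum over 48 libraries of each tissue, with Pearson's r = 0.985 and Spearman's rho = 0.988 in iBAT and 0.923 and 0.899 in iWAT (adjusted permutation p = 2.0e-05 and 1.7e-05 in each tissue, from 1e-05, the smallest that 100000 permutations can give). Without the 2 libraries farthest from the median sum, r was 0.981 and 0.898. Ckmt1, on a 565-base transcript that held 0 to 90 reads per library, ran from 0 to 14.0 RPKM, was called in no within-tissue comparison, and followed the same sum with r = 0.81 (rho 0.851) in iBAT and 0.53 (rho 0.713) in iWAT. In tissue RNA, fewer cells of a type and less RNA per cell cannot be told apart.

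**Figure D2:**
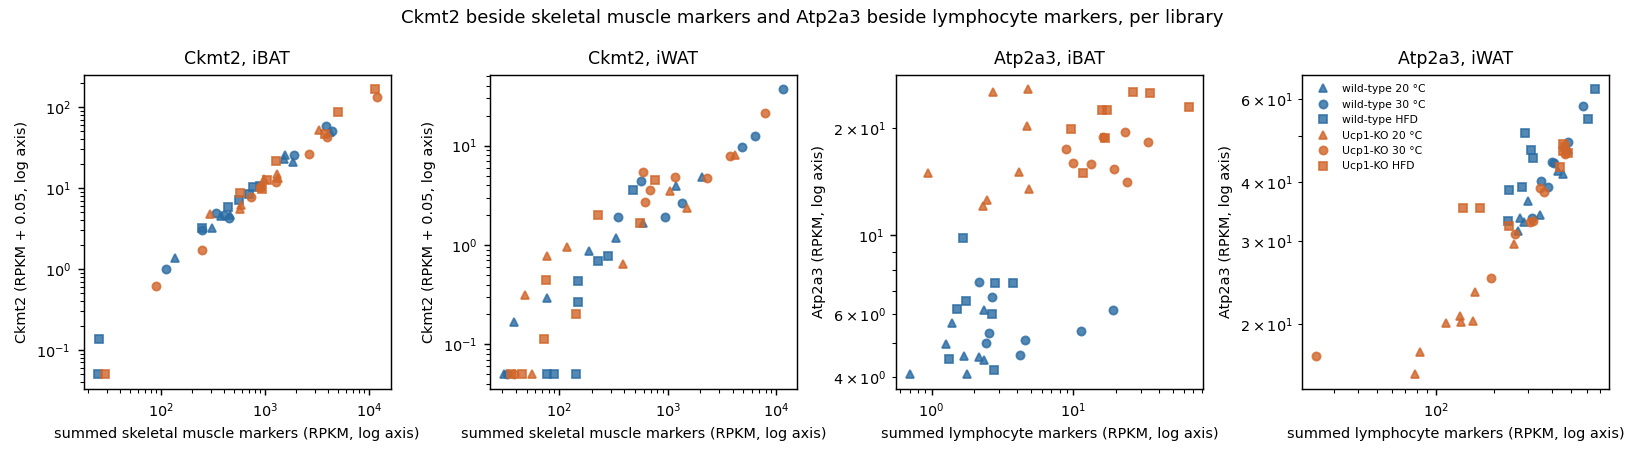
Each point is 1 library, with Ckmt2 against the summed skeletal muscle markers and Atp2a3 against the summed lymphocyte markers (all RPKM, log axes) in iBAT and iWAT, coloured by group. Ckmt2 rises with the muscle sum in both tissues, while Atp2a3 rises with the lymphocyte sum in iWAT and lies apart by genotype in iBAT.

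Alpl, tissue-nonspecific alkaline phosphatase and the phosphatase proposed to hydrolyse phosphocreatine, was highest in Ucp1-KO mice at 20 °C in both tissues. In iBAT it ran from 14.6 to 18.7 RPKM there (median 16.8), against 7.20 to 14.2 in wild-type mice at 20 °C (median 8.25) and 5.52 to 12.0 in Ucp1-KO mice at 30 °C (median 9.07). The Ucp1-KO 20 °C libraries overlapped neither of those groups. Alpl was 0.78 ± 0.12 higher than in wild-type mice (adjusted p = 1.2e-06) and 0.82 ± 0.12 higher than at 30 °C (adjusted p = 8.8e-08). In wild-type iBAT temperature gave −0.07 ± 0.12 for Alpl (adjusted p = 0.677), and the genotypes differed in this response by 0.89 ± 0.17 (adjusted p = 4.0e-05).

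The iWAT levels of Alpl were lower but ordered alike at 20 °C. It ran from 3.21 to 4.97 RPKM in Ucp1-KO mice at 20 °C (median 3.94), from 1.45 to 2.94 in wild-type mice at 20 °C (median 1.98) and from 1.03 to 3.03 in Ucp1-KO mice at 30 °C (median 1.85). Again the first group overlapped neither of the others. The differences were 0.70 ± 0.13 between genotypes (adjusted p = 2.2e-05) and 0.76 ± 0.13 between temperatures (adjusted p = 8.5e-06), while their interaction, 0.53, did not pass (adjusted p = 0.0521). It was called after the rescalings (0.76 and 0.71, adjusted p = 0.0121 and 0.0293) and without any 1 of 8 of the 32 libraries (adjusted p from 0.0252). On the high fat diet Alpl fell in wild-type iBAT to 4.93 to 6.84 RPKM (median 5.79), below all wild-type control-diet libraries at 30 °C (a difference of −0.67 ± 0.12, adjusted p = 3.2e-05). The called difference of 0.42 between genotypes on that diet was no longer called after either rescaling (0.15 and 0.06), while at 30 °C on control diet −0.11 (adjusted p = 0.428) became −0.41 and −0.49 and was called. The iBAT diet responses of Alpl differed between genotypes by 0.54, which did not pass (adjusted p = 0.051). This was called after the rescalings (0.56 and 0.55, adjusted p = 0.0386 and 0.0419) and without any 1 of 8 of the 32 libraries (adjusted p from 0.0345).

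Slc6a8, the creatine transporter of the cell surface, was lower in wild-type iBAT at 20 °C than in the other iBAT groups. It ran from 4.88 to 7.20 RPKM there (median 6.02), from 9.70 to 16.1 at 30 °C (median 11.7) and from 7.40 to 14.7 on high fat diet (median 11.3). The 20 °C libraries lay below all of the other wild-type iBAT libraries, with a difference from 30 °C of −0.89 ± 0.13 (adjusted p = 1.8e-07). In Ucp1-KO iBAT it ran from 7.39 to 13.0 RPKM at 20 °C (median 8.70) and from 8.42 to 17.8 at 30 °C (median 14.1). These groups overlapped, with a difference of −0.56 ± 0.13 (adjusted p = 1.2e-04) that was no longer called after either rescaling (−0.18 and −0.14).

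At 20 °C Slc6a8 was 0.50 ± 0.13 higher in Ucp1-KO iBAT (adjusted p = 0.0016), and the ranges did not overlap. Macrophage markers moved with it: 8 of 10 were higher in Ucp1-KO iBAT at 20 °C, against 24.7% of all genes. Their sum ran from 111.9 to 369.8 RPKM there against 73.8 to 105 in wild-type iBAT, and none was at 0 throughout a group. With the mean log2 level of the macrophage markers as a covariate, added after the data were seen, the genotype difference was 0.17 (adjusted p = 0.328) and the Ucp1-KO temperature difference 0.05 (adjusted p = 0.846). The macrophage sums of the genotypes at 20 °C did not overlap. In Ucp1-KO iBAT those at 20 and 30 °C (367 to 2033 RPKM) met only at their ends. The covariate can thus hardly be separated from genotype or temperature, and nothing is read from these values. In iWAT Slc6a8 was 0.35 lower at 20 °C in wild-type mice (−0.35 ± 0.11, adjusted p = 0.0284) and 0.31 lower in Ucp1-KO mice (−0.31 ± 0.11, adjusted p = 0.0179). Neither was called after the rescalings (−0.26 and −0.25, and −0.01), nor the first without library 54, 55 or 67 (adjusted p up to 0.0712).

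Gatm, which makes guanidinoacetate from arginine and glycine, and Gamt, which methylates it to creatine, both fell with lower temperature in Ucp1-KO iBAT. Gamt ran from 1.09 to 2.95 RPKM at 20 °C (median 1.64), from 4.89 to 9.63 at 30 °C (median 6.45) and from 3.68 to 8.70 on high fat diet (median 5.48). Its 20 °C libraries lay below all of the other Ucp1-KO iBAT libraries, and the difference from 30 °C was −1.47 ± 0.14 (adjusted p = 2.4e-12). Gatm ran from 0.356 to 1.59 RPKM at 20 °C (median 1.09), from 1.71 to 5.34 at 30 °C (median 3.45) and from 3.61 to 9.55 on high fat diet (median 6.81). Its 20 °C libraries also lay below all of the others, with a difference from 30 °C of −1.14 ± 0.18 (adjusted p = 2.3e-07). Both differences were larger than the median of all genes in this comparison, −0.34.

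In wild-type iBAT Gamt stayed between 1.19 and 3.70 RPKM and Gatm between 0.267 and 2.80 RPKM in all 3 conditions, and temperature gave −0.07 ± 0.14 for Gamt (adjusted p = 0.726) and −0.25 ± 0.18 for Gatm (adjusted p = 0.263). The temperature responses differed between genotypes by −1.40 ± 0.20 for Gamt (adjusted p = 3.2e-07) and −0.89 ± 0.25 for Gatm (adjusted p = 0.00289). At 30 °C Gamt was 1.20 ± 0.14 higher in Ucp1-KO iBAT without overlap (adjusted p = 1.1e-09), and Gatm 0.74 ± 0.18 higher with overlap (adjusted p = 3.4e-04). After quantile normalization that Gatm difference (0.33) and its difference in temperature response (−0.55) were no longer called. On the high fat diet Gatm was 1.68 ± 0.18 higher without overlap (adjusted p = 6.4e-11) and Gamt 0.75 higher with overlap at the ends (adjusted p = 1.6e-05).

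Macrophage markers moved with both genes, 10 of 10 lower at 20 °C than at 30 °C in Ucp1-KO iBAT, against 59.5% of all genes. Their sum there ran from 111.9 to 369.8 RPKM at 20 °C and from 367 to 2033 at 30 °C. All 10 were also higher in Ucp1-KO than in wild-type iBAT at 30 °C, against 54.2% of all genes, and none was at 0 throughout a group. Markers of several other cell types moved the same way in Ucp1-KO iBAT, with 8 of 8 endothelial, 6 of 8 lymphocyte, 5 of 6 smooth muscle, 5 of 6 Schwann and nerve and 4 of 5 adipocyte markers lower at 20 °C. Not all did: 1 Schwann and nerve marker was higher and 0 of 14 skeletal muscle markers were called. Of 6 brown adipocyte markers 2 were higher and 2 lower. In wild-type iBAT 8 of 10 macrophage, 7 of 8 endothelial, 3 of 6 smooth muscle and 3 of 8 lymphocyte markers were lower at 20 °C, beside the falls of Ckb, Slc6a8 and Atp2a2. Of all genes 33% were lower there, which the lymphocyte share was near. In that comparison 0 of 14 skeletal muscle markers were called, and of 6 brown adipocyte markers 3 were lower and 1 higher. The part of these cell types in the results was not tested except for the macrophage, lymphocyte and muscle levels as covariates. With the macrophage level as a covariate the temperature difference in Ucp1-KO iBAT was −1.31 for Gamt, still called, and −0.58 for Gatm (adjusted p = 0.095). The genotype difference at 30 °C was 1.01 for Gamt, still called, and 0.12 for Gatm (adjusted p = 0.814). The macrophage sums of the 2 Ucp1-KO groups met only at their ends. At 30 °C the wild-type sums (172.9 to 297.7 RPKM) lay below all Ucp1-KO sums. The macrophage level can thus hardly be separated from temperature or genotype, and nothing is read from Gamt and Gatm differing here. The Gatm row is a transcript of 791 bases that held 2 to 125 reads per library. Its higher level on high fat than on control diet in Ucp1-KO iBAT (0.74, adjusted p = 0.00263) was 0.26 on the RefSeq row and 0.36 on the sum of its transcripts, neither called, and the larger diet response in Ucp1-KO iBAT (0.93 ± 0.25, adjusted p = 0.018) was 0.38 and 0.65.

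In iWAT the synthesis genes were lower in Ucp1-KO mice at 20 °C. Gatm ran from 2.02 to 4.58 RPKM there (median 3.37) and from 5.02 to 10.8 in wild-type mice (median 6.99). The groups did not overlap, with a difference of −0.89 ± 0.14 (adjusted p = 8.9e-07). Against Ucp1-KO mice at 30 °C (3.30 to 7.19 RPKM, median 6.01) Gatm was −0.64 ± 0.14 at 20 °C (adjusted p = 1.6e-04), and the genotypes differed in this response by −0.63 (adjusted p = 0.0286), which was no longer called after the rescalings (−0.44 and −0.43) or without library 54, 56, 60 or 64 (adjusted p up to 0.06). Gamt was 0.55 lower in Ucp1-KO iWAT at 20 °C (median 4.67 against 6.95 RPKM, a difference of −0.55 ± 0.21, adjusted p = 0.0202), which was no longer called after median-ratio scaling (−0.24), after quantile normalization (−0.21) or without library 54 (adjusted p = 0.0641).

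Gamt was higher on the high fat diet in wild-type iWAT. It ran from 7.10 to 24.5 RPKM there (median 16.5) and from 4.66 to 8.04 RPKM on control diet at 30 °C (median 6.45). The groups overlapped at their ends, with a difference of 1.06 ± 0.21 (adjusted p = 4.0e-04). In Ucp1-KO iWAT Gamt ran from 6.07 to 26.8 RPKM on high fat diet (median 8.57) and from 4.73 to 8.67 on control diet (median 6.50). That difference, 0.63 (adjusted p = 0.0247), was of like size after the rescalings (0.55 and 0.51) but no longer called (adjusted p = 0.079 and 0.101), nor was it without library 92, 93 or 95 (adjusted p up to 0.0827). The diet responses of the genotypes differed by −0.43, which did not pass (adjusted p = 0.441).

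**Figure D3:**
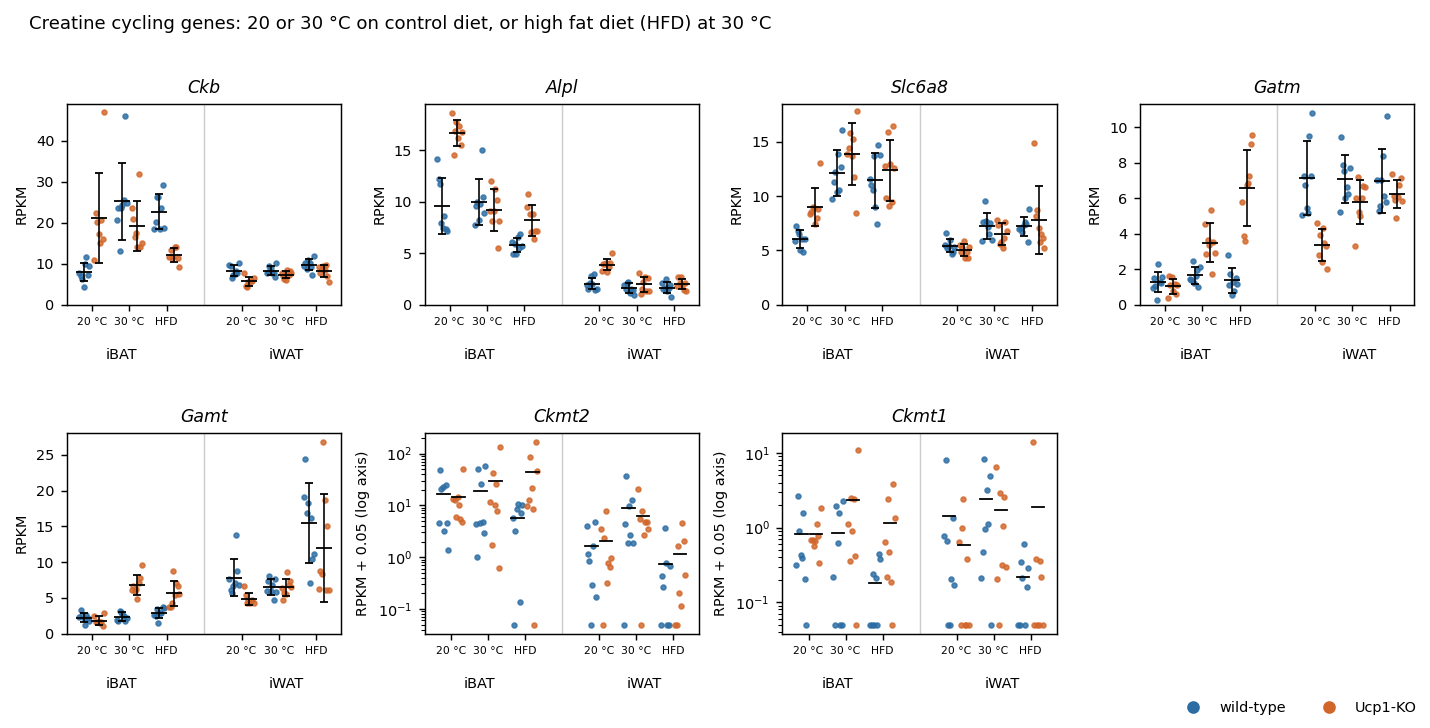
RPKM of the 7 creatine genes in each library (points) of the 12 groups of 8, with mean ± SD. Ckmt2 and Ckmt1 are on a log axis with 0.05 added and a line at the mean. Gamt in Ucp1-KO iBAT lies between 1.09 and 2.95 at 20 °C and above 3.6 in the other Ucp1-KO groups.

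Among 8 companions in creatine and phosphate transfer, 4 were higher and 1 lower in Ucp1-KO than in wild-type iBAT at 20 °C, with a list median of 0.20 beside 0.06 for all genes, of which 24.7% were higher and 13.1% lower. Phospho1, another phosphatase of the skeletal mineral pathway in which Alpl acts, was the largest of them at 1.60 ± 0.12 (adjusted p = 1.1e-14), and it was 2.79 ± 0.21 higher in iWAT (adjusted p = 2.4e-14). Phospho1 also rose at 20 °C in Ucp1-KO iBAT (1.06, adjusted p = 3.0e-10) and iWAT (2.76, adjusted p = 2.3e-14), while in wild-type iBAT it fell by 0.78 (a difference of −0.78, adjusted p = 1.4e-06). Ak4, an adenylate kinase of mitochondria, did the reverse of Phospho1 in iBAT, 0.98 higher at 20 °C in wild-type mice (adjusted p = 2.1e-10) and −0.48 in Ucp1-KO mice (adjusted p = 7.7e-05).

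Of 9 tested genes of arginine, glycine and methyl supply, 4 were higher and 1 lower in Ucp1-KO iBAT at 30 °C (list median 0.18, all genes 0.27, with 54.2% of all genes higher and 10.5% lower), and 2 were higher and 4 lower at 20 than at 30 °C in Ucp1-KO iBAT (−0.16, all genes −0.34, with 13.9% higher and 59.5% lower). Ass1 and Asl, which make arginine, were among the higher ones at 30 °C by 0.85 and 0.82 (adjusted p = 2.8e-07 and 7.0e-07). In iWAT 7 of 10 were lower and 1 higher in Ucp1-KO mice at 20 °C (list median −0.62, all genes −0.27, with 55% of all genes lower and 9.85% higher), among them Oat, ornithine aminotransferase, at −0.74 (adjusted p = 1.4e-08). Shmt1, a serine hydroxymethyltransferase that supplies glycine, fell by 0.84 at 20 °C in wild-type iBAT (−0.84 ± 0.12, adjusted p = 9.8e-08).

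Atp2a2, the SERCA2 calcium pump, had the highest level per length of the members in iBAT groups. In wild-type iBAT it ran from 41.2 to 82.5 RPKM at 20 °C (median 54.0), from 89.7 to 138 at 30 °C (median 117) and from 66.4 to 90.6 on high fat diet (median 78.9). The 20 °C and 30 °C groups did not overlap, with a difference of −1.06 ± 0.11 (adjusted p = 1.1e-10). In Ucp1-KO iBAT it ran from 91.5 to 113.5 RPKM at 20 °C (median 109), from 73.3 to 123 at 30 °C (median 105) and from 72.2 to 109 on high fat diet (median 98.9). These overlapped, with 0.06 ± 0.11 for temperature (adjusted p = 0.629), which became 0.48 after median-ratio scaling and was called (adjusted p = 3.9e-04), but 0.17 and not called after quantile normalization. The genotypes differed in their temperature response by 1.12 ± 0.16 (adjusted p = 1.4e-07). Atp2a2 was 0.96 ± 0.11 higher in Ucp1-KO iBAT at 20 °C (adjusted p = 1.1e-09), without overlap, at 1.91 times the wild-type mean. At 30 °C on control diet the genotypes gave −0.17 ± 0.11 (adjusted p = 0.182), which became −0.50 and −0.36 and was called after the 2 rescalings. High fat diet went with less Atp2a2 in wild-type iBAT (−0.54 ± 0.11, adjusted p = 1.7e-04).

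In iWAT Atp2a2 rose at 20 °C in Ucp1-KO mice. It ran from 44.2 to 54.5 RPKM there (median 51.3), from 25.3 to 35.1 in wild-type mice at 20 °C (median 31.0), from 32.3 to 38.8 in Ucp1-KO mice at 30 °C (median 35.5) and from 28.8 to 33.3 in wild-type mice at 30 °C (median 31.3). The Ucp1-KO 20 °C libraries lay above all of the other 3 groups. The differences were 0.72 ± 0.06 between genotypes at 20 °C (adjusted p = 2.7e-13), 0.48 ± 0.06 between temperatures in Ucp1-KO mice (adjusted p = 7.3e-09) and 0.55 ± 0.08 for the interaction (adjusted p = 3.1e-05). Muscle also expresses this pump, and within groups Atp2a2 went with their sum in iBAT (r = 0.51, rho = 0.401, adjusted permutation p = 9.0e-04 and 0.0133, n = 48; r = 0.394 without the 2 farthest libraries) but not detectably in iWAT (r = −0.159, rho = −0.125, adjusted permutation p = 0.295 and 0.433; −0.144 without 2). The small difference of 0.18 at 30 °C between genotypes in iWAT (adjusted p = 0.0264) was 0.20 after quantile normalization, no longer called (adjusted p = 0.0612), and was not called without library 69, 73 or 79 (adjusted p up to 0.0645).

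Atp2a3, the SERCA3 pump, known from blood and other non-muscle cells, was higher in every Ucp1-KO iBAT library than in any wild-type iBAT library. It ran from 4.07 to 6.17 RPKM at 20 °C (median 4.57), from 4.61 to 7.38 at 30 °C (median 5.37) and from 4.19 to 9.85 on high fat diet (median 6.38) in wild-type iBAT. Among the Ucp1-KO iBAT libraries it ran from 12.1 to 25.8 RPKM at 20 °C (median 15.1), from 14.1 to 19.5 at 30 °C (median 16.8) and from 15.0 to 25.3 on high fat diet (median 22.6). The differences between genotypes were 1.62 ± 0.13 (adjusted p = 5.4e-14), 1.42 ± 0.13 (adjusted p = 1.7e-12) and 1.60 ± 0.13 (adjusted p = 6.1e-14). Temperature gave −0.20 ± 0.13 in wild-type iBAT (adjusted p = 0.216) and 0.00 in Ucp1-KO iBAT, although after rescaling the latter was 0.40 and 0.36 higher and called.

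Macrophage markers, and lymphocyte markers on high fat diet, also differed between the iBAT genotypes. Of 8 lymphocyte markers tested 1, 5 and 8 were higher in Ucp1-KO iBAT at 20 °C, 30 °C and on high fat diet. Of all genes 24.7%, 54.2% and 52.8% were higher, so the lymphocyte share was below that at 20 °C and near it at 30 °C. The sum over 10 lymphocyte markers ran from 0.706 to 19.1 RPKM in wild-type and from 0.951 to 65.3 RPKM in Ucp1-KO libraries, with no marker at 0 throughout a group. Of 10 macrophage markers 8, 10 and 10 were higher. With the mean log2 level of the lymphocyte markers as a covariate the Atp2a3 differences were 1.59, 1.31 and 1.40, and with that of the macrophage markers 1.37, 0.88 and 1.14, all still called. The macrophage sums lay apart by genotype at 20 °C (73.8 to 105 RPKM in wild-type, 111.9 to 369.8 in Ucp1-KO iBAT). They also did at 30 °C (172.9 to 297.7, 367 to 2033) and on high fat diet (136.3 to 410.9, 512.3 to 1639). The lymphocyte sums lay apart on high fat diet (1.32 to 3.76, 9.54 to 65.3). There the covariates can hardly be separated from genotype, and nothing is read from these calls. Within groups in iBAT Atp2a3 had r = 0.215 and rho = 0.283 with the lymphocyte sum (adjusted permutation p = 0.143 and 0.0698; 0.201 without 2) and r = 0.438 and rho = 0.413 with the macrophage sum (adjusted permutation p = 0.0031 and 0.00879; 0.466 without 2), n = 48.

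In iWAT the direction was the other way. Atp2a3 ran from 15.7 to 29.6 RPKM in Ucp1-KO mice at 20 °C (median 20.3) and from 31.6 to 46.8 in wild-type mice (median 35.3). These did not overlap, with a difference of −0.81 ± 0.14 (adjusted p = 3.7e-06). In Ucp1-KO iWAT at 30 °C it ran from 17.1 to 45.8 RPKM (median 33.0), so that 20 °C was −0.59 ± 0.14 (adjusted p = 3.7e-04), which was no longer called after median-ratio scaling (−0.25, adjusted p = 0.0767). At 30 °C the genotypes differed by −0.46 (adjusted p = 0.0165), which was no longer called without library 79 (adjusted p = 0.0629).

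Lymphocyte markers moved with these iWAT differences: 10 of 10 were lower in Ucp1-KO iWAT at 20 °C, 7 at 20 against 30 °C in Ucp1-KO iWAT and 5 at 30 °C between genotypes. Of all genes 55%, 51.4% and 16.2% were lower there. Other markers fell too, at 20 °C between genotypes 8 of 10 macrophage, 5 of 6 Schwann and nerve, 5 of 6 epithelial and 5 of 8 endothelial. Between temperatures 6 of 10 macrophage, 7 of 8 endothelial, 5 of 6 smooth muscle and 5 of 6 Schwann and nerve markers were lower. In both, 4 of 5 brown adipocyte and 1 of 6 Schwann and nerve markers were higher. The lymphocyte sum ran from 78.0 to 254.8 RPKM in Ucp1-KO and from 265.8 to 484 RPKM in wild-type iWAT at 20 °C, without overlap. Within groups Atp2a3 followed it with r = 0.886 and rho = 0.923 over 48 iWAT libraries (adjusted permutation p = 2.0e-05 and 1.7e-05; 0.897 without 2) and followed the macrophage sum with r = 0.663 and rho = 0.659 (adjusted permutation p = 2.0e-05 and 1.7e-05; 0.631 without 2). These points share libraries, and 10 such relations were computed. With the lymphocyte level as a covariate the genotype difference at 20 °C was −0.31 and the Ucp1-KO temperature difference −0.28, and with the macrophage level −0.57 and −0.41, all still called. At 20 °C the macrophage sums also lay apart by genotype (346.9 to 727.4 RPKM in Ucp1-KO, 740.6 to 1517 in wild-type iWAT). There both covariates can hardly be separated from genotype, and nothing is read from the genotype calls at 20 °C. With the lymphocyte level the 30 °C difference was −0.17 (adjusted p = 0.118), and with the macrophage level −0.26 (adjusted p = 0.21).

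Ryr2, the ryanodine receptor channel known from heart, had the lowest mean level of the members over all libraries, and its row is a 1122-base transcript with 0 to 41 reads per iBAT library. In wild-type iBAT it ran from 0 to 0.413 RPKM at 20 °C, from 0 to 0.192 at 30 °C and from 0.494 to 2.76 on high fat diet (median 1.27). In Ucp1-KO iBAT it ran from 0.285 to 1.21 RPKM at 20 °C (median 0.845), from 0.264 to 1.11 at 30 °C (median 0.673) and from 0.701 to 3.26 on high fat diet (median 1.14). The wild-type control-diet groups were low and the other 4 higher, with overlap between the genotypes at 20 °C and none at 30 °C. Because Ryr2 passed the filter through its high groups, its calls are values rather than support: 0.60 ± 0.17 and 0.63 ± 0.17 between genotypes at 20 and 30 °C (adjusted p = 0.0042 and 0.00125), and 1.15 ± 0.17 for the high fat diet in wild-type iBAT (adjusted p = 9.3e-07). The diet difference in Ucp1-KO iBAT, 0.52 (adjusted p = 0.0263), was no longer called without library 28, 29, 43 or 46 (adjusted p up to 0.086).

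The full-length Ryr2 transcript of 16813 bases, below the filter and so not tested, held more reads. In wild-type iBAT it held 5 to 15 reads at 20 °C, 3 to 11 at 30 °C and 26 to 203 on high fat diet. The Ucp1-KO libraries held 47 to 91, 34 to 93 and 36 to 233 reads. No library of the first 2 groups reached the lowest of the other 4. In iWAT Ryr2 did not pass the filter, at 0 to 0.851 RPKM on the short row.

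**Figure D4:**
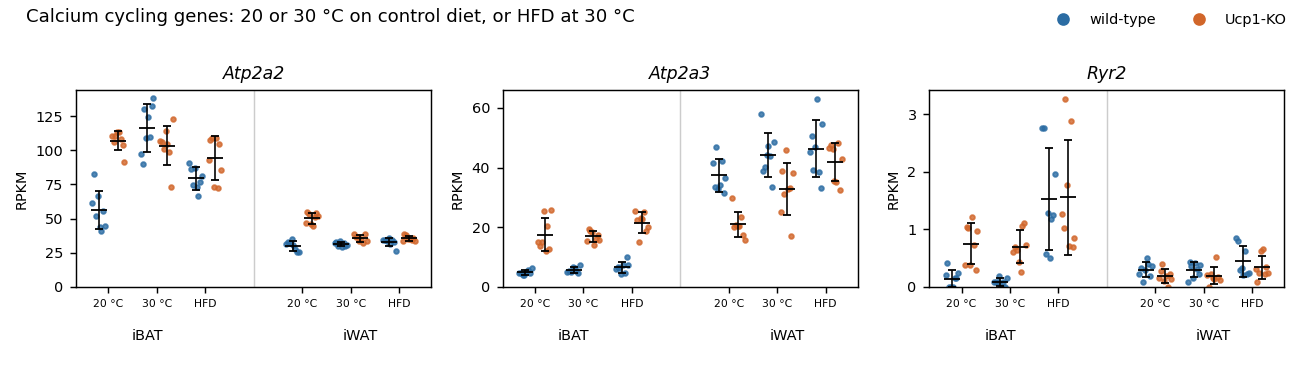
RPKM of Atp2a2, Atp2a3 and Ryr2 in each library (points) of the 12 groups of 8, with mean ± SD. Atp2a3 in the 3 Ucp1-KO iBAT groups lies between 12.1 and 25.8, above the 4.07 to 9.85 of the wild-type iBAT groups.

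Of 19 tested genes for calcium release, uptake and SERCA regulation, 6 were higher and 2 lower in Ucp1-KO iBAT at 30 °C (list median 0.49, all genes 0.27), against 54.2% and 10.5% of all genes. On high fat diet 13 were higher and 3 lower (0.57, all genes 0.25), against 52.8% and 11% of all genes, in the comparison in which 11 of 14 muscle markers were also higher. Itpr3, an inositol trisphosphate receptor, was 0.70 higher at 30 °C (adjusted p = 1.3e-07), and Itpr1, another, 0.40 lower (−0.40 ± 0.06, adjusted p = 8.0e-07). Calr, which buffers calcium in the reticulum, fell at 20 °C in wild-type iBAT (−0.45, adjusted p = 4.7e-07) and in Ucp1-KO iBAT (−0.50, adjusted p = 1.1e-08). Of 7 genes for mitochondrial calcium handling, which are not all uptake genes, 4 were higher and 0 lower in Ucp1-KO iBAT at 20 °C (list median 0.26, all genes 0.06), against 24.7% and 13.1% of all genes. Slc8b1, the mitochondrial sodium-calcium exchanger, was among them at 0.61 (adjusted p = 3.1e-09), and it was −0.59 in iWAT (adjusted p = 2.2e-07), where 4 of 7 were lower and 0 higher (list median −0.42, all genes −0.27), a share near the 55% of all genes lower there. Mcu, the uniporter's pore, was 0.54 higher in iBAT (adjusted p = 6.7e-05) and −0.45 in iWAT (adjusted p = 3.0e-05).

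Between tissues, Alpl and Atp2a2 were higher in iBAT than in iWAT in all 6 pairs of groups, and Atp2a3 and the synthesis genes mostly lower. In wild-type mice at 20 °C, 3 of 10 members were higher in iBAT and 3 lower, against 15.8% and 64.4% of all genes (35.3% and 40.8% after median-ratio scaling). At 30 °C 4 were higher and 3 lower, against 19.5% and 61.8% (35.0% and 42.5%), and on high fat diet 6 and 3, against 16.7% and 61.9% (33.9% and 40.3%). In Ucp1-KO mice at 20 °C 6 were higher and 2 lower, against 20.2% and 42.7% (31.4% and 33.0%). At 30 °C 5 and 2 were called, against 26.3% and 35.8%, and on high fat diet 6 and 2, against 24.5% and 45% (30.9% and 36.2%). Ryr2 is among the members called higher in the Ucp1-KO pairs and on high fat diet in wild-type mice. After median-ratio scaling 5 of 10 members were higher in wild-type mice at 20 °C, and the 4 of 10 at 30 °C were close to the 35.0% of all genes.

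The tissue differences of single members depended on genotype and temperature. Atp2a3 was −2.72, −2.75 and −2.67 in iBAT against iWAT of wild-type mice at 20 °C, 30 °C and on high fat diet, and −0.28 (adjusted p = 0.0622, not called), −0.87 and −0.93 in Ucp1-KO mice. Lymphocyte markers summed to 0.706 to 65.3 RPKM in iBAT and 24.3 to 667 in iWAT, and with their level as a covariate the last 3 values were 0.81, 0.21 and 0.22. In Ucp1-KO mice the sums lay apart by tissue at 20 °C (0.951 to 4.90 in iBAT, 78.0 to 254.8 in iWAT). They also lay apart on high fat diet (9.54 to 65.3 and 138 to 484). The covariate can thus hardly be separated from tissue, and nothing is read from the signs of these values. Ckb did not differ detectably between tissues in wild-type mice at 20 °C (−0.09 ± 0.16, adjusted p = 0.605; 0.42 and 0.53 after the 2 rescalings), and was 1.43 higher in iBAT at 30 °C (adjusted p = 7.4e-14). The temperature response differed between tissues in wild-type mice for 3 of 10 members, all lower, and for 0 higher (0 at an unadjusted p under 0.05), against 11.7% and 5.07% of all genes (10.5% and 7.36%): Ckb by −1.52 ± 0.22 (adjusted p = 1.5e-07), Atp2a2 by −1.0 ± 0.13 (adjusted p = 1.8e-09) and Slc6a8 by −0.54 (adjusted p = 0.0197), the last no longer called after quantile normalization (−0.39, adjusted p = 0.0984). In Ucp1-KO mice 2 were lower (Gamt by −1.13, Atp2a2 by −0.42) and 1 higher (Atp2a3 by 0.59), against 18.8% and 6.7% (12.9% and 14.2%). After median-ratio scaling the Atp2a2 value was −0.25 and no longer called (adjusted p = 0.185), while Ckb was called higher (0.57, adjusted p = 0.0396).

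**Figure D5:**
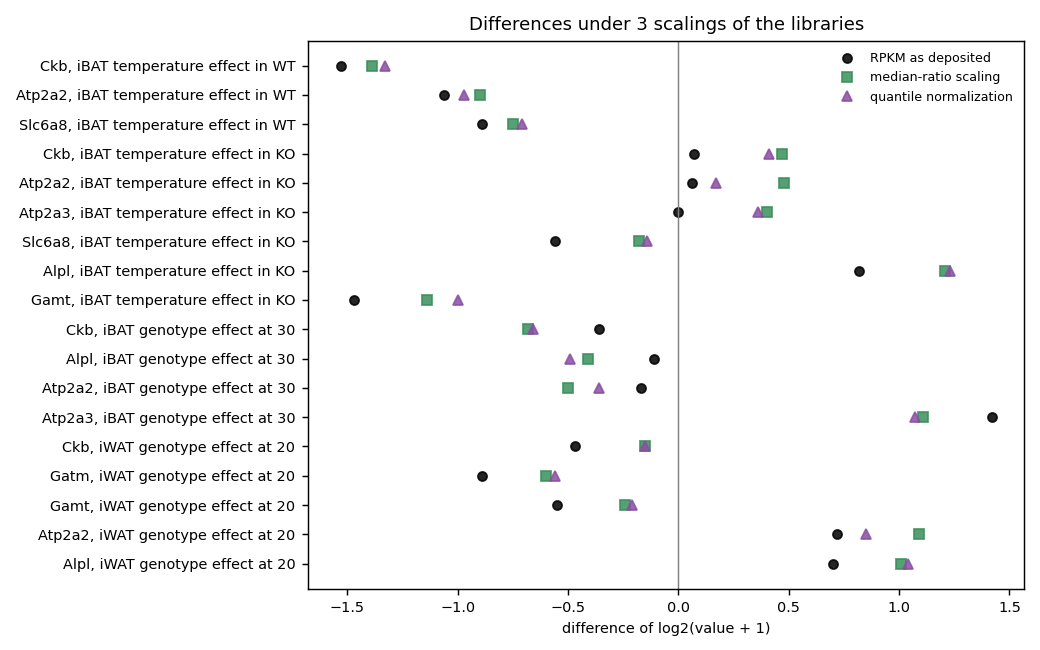
Differences of log2(RPKM + 1) for 18 member results, chosen after their values were seen, under the deposited RPKM, median-ratio scaling and quantile normalization. The Atp2a3 genotype differences in iBAT stay above 1 under all 3, while the Atp2a3 temperature difference in Ucp1-KO iBAT moves from 0.00 to 0.40 and 0.36.

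Ordered by mean level, neighbouring groups of a tissue overlapped for all members, with these exceptions: in iBAT, Slc6a8 between Ucp1-KO and wild-type mice at 20 °C and Atp2a3 between Ucp1-KO at 30 °C and wild-type on high fat diet, and in iWAT, Alpl between Ucp1-KO and wild-type mice at 20 °C and Atp2a2 between Ucp1-KO at 20 °C and Ucp1-KO on high fat diet. The most alike gene to each member was named by Pearson's r of log2(RPKM + 1) over the 48 libraries of a tissue, among named genes with a mean of at least 5 RPKM, as a description of libraries that share group, depth and scaling. In iBAT it was Tymp for Ckb (0.806), Myot for Ckmt2 (0.993), Mtor for Alpl (0.836), Max for Slc6a8 (0.869), Rpn1 for Gatm (0.90), Arl6ip5 for Gamt (0.899), Sec24a for Atp2a2 (0.872), Plscr2 for Atp2a3 (0.951) and Arhgef12 for Ryr2 (0.853). In iWAT it was Vasp for Atp2a3 (0.974), Myot for Ckmt2 (0.98), Fgf13 for Gamt (0.916), Atp6v1a for Atp2a2 (0.883) and Nploc4 for Alpl (0.807). Among the members themselves, Gatm and Gamt had r = 0.723 in iBAT, and in iWAT Alpl and Atp2a2 had 0.784 and Gatm and Atp2a2 −0.809.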

How the data were processed

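Per the labels, an mRNA kit that keeps strand was used to make the 96 libraries from total RNA. The authors deposited RPKM per transcript. CASAVA and bcl2fastq are named in the submitters' processing notes, which give no aligner, build or annotation (not given in the sources used here). Of values up to 20 reads, 94.9% to 95.7% per library were whole reads within 0.05 of a read, which gave depths of 8.91 to 19.2 M reads (median 11.8).

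The row of highest mean stood for each of 29072 symbols. Genes with at least 0.5 RPKM in 8 libraries were fitted with limma 3.58.1 (R 4.3.3, trend, 1 pseudocount) on log2 values, in 1 model per tissue, or over both tissues for tissue contrasts, with Benjamini-Hochberg adjustment over all genes. The code was checked on simulated data.

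All 10 members, the called genes of 4 companion lists (46 genes) and the 3 most alike genes per member (7692 genes compared in iBAT, 8874 in iWAT) could be named. Members and lists, with 11 marker lists, were chosen with earlier results of these data known. The RefSeq row, the macrophage covariate and the removal of muscle-rich libraries were added after seeing the data. The smallest group was 8 libraries, and p-values cover the spread between them.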

Additional observations from a re-analysis of the deposited data

Results flagged for a closer look

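In 21 of 120 sets of 1 member in 1 group, a single library stood far from the other 7, with a gap to its nearest neighbour, as a share of the range of the group, above the 95% critical value of Dixon's test for 8 libraries. Chance flags about 1 in 20 such sets. Library 16, a Ucp1-KO iBAT library at 20 °C, was apart for 4 members: Ckb at 47.0 RPKM (nearest 22.4), Ckmt2 at 51.3 (nearest 14.7), Slc6a8 at 13.0 (nearest 8.97) and, on the low side, Atp2a2 at 91.5 (nearest 104.0). In wild-type iBAT at 30 °C Ckb reached 46.2 RPKM in library 23 (nearest 25.5) and Alpl 15.0 in library 22 (nearest 10.4). Gamt reached 13.8 RPKM in library 54 of wild-type iWAT at 20 °C (nearest 8.77), Slc6a8 14.9 in library 89 of Ucp1-KO iWAT on high fat diet (nearest 8.68), Alpl 4.97 in library 64 of Ucp1-KO iWAT at 20 °C (nearest 4.03) and Ryr2 0.512 in library 78 of Ucp1-KO iWAT at 30 °C (nearest 0.224).

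The mitochondrial creatine kinases gave 12 of the 21, that of library 16 included. Ckmt2 reached 134.0 RPKM in library 32 of Ucp1-KO iBAT at 30 °C (nearest 42.0). In iWAT it reached 37.3 in library 67 (wild-type, 30 °C), 3.56 in library 84 (wild-type, high fat diet), 7.92 in library 60 (Ucp1-KO, 20 °C), 21.1 in library 73 (Ucp1-KO, 30 °C) and 4.44 in library 94 (Ucp1-KO, high fat diet). Ckmt1 reached 11.1 RPKM in library 32, 8.02 in library 50 (wild-type iWAT, 20 °C), 2.38 in library 60, 6.38 in library 73 and 14.0 in library 89. The 7 libraries in which Ckmt2 stood apart had the highest muscle marker sum of their groups, and so had libraries 32, 60 and 73 for Ckmt1. Library 89 had the lowest muscle sum of its group (35.9 RPKM) and an epithelial marker sum of 91.0 RPKM, against 1.94 to 6.29 in the other 7. In library 50 the epithelial sum was 35.9 RPKM, against 2.26 to 14.5 in the others. The part of these tissues in single libraries was not tested.

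In 14 cases a member's response differed between genotypes or tissues by a test of the difference itself (limma, adjusted over all genes). The iBAT temperature response was higher in Ucp1-KO than in wild-type mice for Ckb (1.60), Atp2a2 (1.12) and Alpl (0.89), and lower for Gamt (−1.40) and Gatm (−0.89). That Gatm value was −0.55 and not called after quantile normalization. The iBAT diet response was higher for Gatm (0.93), but 0.38 on the RefSeq row and 0.65 on the sum of transcripts, neither called. In iWAT the temperature response was higher in Ucp1-KO mice for Atp2a2 (0.55) and lower for Gatm (−0.63), the latter not called after either rescaling (−0.44 and −0.43). The temperature response in iBAT was lower than in iWAT for Ckb (−1.52), Atp2a2 (−1.0) and Slc6a8 (−0.54) in wild-type mice, and for Gamt (−1.13) and Atp2a2 (−0.42) but not Atp2a3 (0.59, higher) in Ucp1-KO mice. The Slc6a8 value was no longer called after quantile normalization (−0.39), nor the last Atp2a2 value after median-ratio scaling (−0.25).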

How the results depend on the processing

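Members called per comparison stayed within 1.5 times the count given above except as follows. Median-ratio scaling gave 7 at 30 °C between iBAT genotypes, 2 for the iBAT diet response between genotypes, 0 for wild-type iWAT temperature, 3 for Ucp1-KO iWAT temperature and 1 for Ucp1-KO iWAT diet. Quantile normalization gave 2, 0 and 1 for the iBAT diet response between genotypes, wild-type iWAT temperature and Ucp1-KO iWAT diet, and 1 for iWAT genotypes at 30 °C. A pseudocount of 0.1 or a filter at 1 RPKM gave 2 for the iBAT diet response between genotypes, and a pseudocount of 5 gave 2 for wild-type iWAT temperature. Fitting only the groups compared gave 1 for Ucp1-KO iWAT diet and 4 for the iWAT temperature response between genotypes. The RefSeq row and the sum of transcripts each gave 1 for Ucp1-KO iBAT diet. The muscle covariate gave 0 for wild-type iWAT temperature and 1 for each iWAT diet comparison. The lymphocyte covariate gave 4 for Ucp1-KO tissues at 30 °C and 0 for iWAT genotypes at 30 °C. The macrophage covariate gave 2 for Ucp1-KO iBAT temperature, 2 for the iBAT diet response between genotypes, 0 for wild-type iWAT temperature and 0 for iWAT genotypes at 30 °C. Without the 32 muscle-rich libraries the counts were 1 for the tissue difference in temperature response of Ucp1-KO mice, 1 for Ucp1-KO iBAT diet, 0 for the iBAT diet response between genotypes, 0 for wild-type iWAT temperature, 0 for iWAT genotypes at 30 °C, 1 and 0 for wild-type and Ucp1-KO iWAT diet, and 1 for the iWAT temperature response between genotypes. The cause of these changes was not tested.

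Directions turned in 11 cases, counting only differences called before or after the change in processing. Ckb between tissues of wild-type mice at 20 °C went from −0.09 to 0.42 (median-ratio) and 0.53 (quantile), and Atp2a3 temperature in Ucp1-KO iBAT from 0.00 to 0.40 and 0.36. Atp2a3 between Ucp1-KO tissues was 0.81, 0.21 and 0.22 with the lymphocyte covariate, which can hardly be separated from tissue. Ckmt1 between Ucp1-KO tissues on high fat diet was −0.81 with the muscle covariate. Slc6a8 was 0.05 (Ucp1-KO iBAT temperature) and −0.48 (iBAT genotypes on high fat diet) with the macrophage covariate. In these groups that covariate can hardly be separated from temperature or genotype. Ckmt2 was −0.04 between iBAT genotypes on high fat diet without muscle-rich libraries.

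Leaving out each library in turn gave 5 to 8 calls between iBAT genotypes on high fat diet, 4 to 5 at 30 °C, 2 to 3 for Ucp1-KO iBAT diet and 1 to 3 for the iBAT diet response between genotypes. In iWAT it gave 0 to 2 for wild-type and 6 to 7 for Ucp1-KO temperature, 5 to 6 and 0 to 2 between genotypes at 20 and 30 °C, 1 to 3 for Ucp1-KO diet and 1 to 3 for the temperature response between genotypes. Between tissues it gave 8 to 9 for wild-type mice on high fat diet, 8 to 9 and 7 to 8 for Ucp1-KO mice at 20 and 30 °C, and 3 to 4 for their temperature response. Counts of the other comparisons did not move. Of 4944 single differences refitted this way, 4866 kept their call, and also their direction where they were called. Turns of direction of differences that were not called were not counted. No paired analysis was possible because the labels number the libraries 1 to 96 and give no replicate numbers shared between groups. Depth limits Ryr2, Ckmt1 and Gatm, whose rows held few reads.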
